A study of Mus musculus with 13 samples.

Results

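The 9 genes described here control the formation and removal of blood clots at the vessel wall and in tissue: Tfpi, Tfpi2, Thbd, Procr, Pros1, F3, Plat, Plau and Serpine2. They were taken by symbol from the 34419 genes of the count table, and all 9 passed the filter on low counts, as did 17779 genes in all. The members were chosen by how genes differed between the housing temperatures in these same libraries, so their differences between temperatures are a description. Adjusted P values are given for members only in fits where a change of processing ended the call of a member. RNA of gluteal white adipose tissue (WAT), a subcutaneous fat depot, was sequenced from male C57BL/6J mice, with 1 library per mouse. In the group called 22°C, 7 mice were kept at that cool room temperature, and in the group called 29°C, 6 mice were kept near thermoneutrality, from birth to 13 weeks of age in both. The labels give no engineered allele for either group, and in both the mice were housed singly with little bedding, and had the hair on the hind part of the body removed after weaning. The tissue was taken whole, so every value is a mix of adipocytes, vessels, stroma and blood cells, and for each gene below fewer cells of a type and less RNA per cell cannot be told apart.

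Coagulation starts when tissue factor, the product of F3, binds factor VII from plasma, and it ends in thrombin and fibrin. Tissue factor pathway inhibitor (Tfpi) blocks that first step. Thrombomodulin (Thbd) on endothelium binds thrombin and redirects it to activate protein C, the endothelial protein C receptor (Procr) presents protein C to it, and protein S (Pros1) is the cofactor of the activated enzyme. Fibrin is dissolved by plasmin, which tissue plasminogen activator (Plat) and urokinase (Plau) make from plasminogen. Protease nexin 1 (Serpine2) inhibits thrombin and both activators. In fat, endothelium, stromal cells and macrophages are known sources of several of these proteins.

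The sequences before the Tfpi start sites are shown because Tfpi is 1 of the 2 members whose groups did not overlap, with F3 beside it because it encodes tissue factor, whose complex with activated factor VII is blocked by Tfpi. They are the 250 bases upstream of the start, 5′ to 3′ on the strand of the gene, from RefSeq on GRCm38.p6, a build other than the GRCm39 of the counts. Of the 9 genes, 6 have such a window, with 9 windows in all, and Thbd, Plat and Plau have none. Capitals mark matches to 4 motifs, searched on both strands with overlapping matches kept. They are TATAAA of the TATA box, the GC box GGGCGG bound by Sp1, the element CACCC bound by Krüppel-like factors, and the AP-1 element TGANTCA. The first Tfpi window is chr2:84476760-84477009 and the second chr2:84474175-84474424, both on the minus strand. GENCODE M21 places the first before the gene, and the second in an intron of the longer transcripts, except for the last bases of each. The F3 window is chr3:121723287-121723536 on the plus strand, directly before the first exon.
Tfpi, first start: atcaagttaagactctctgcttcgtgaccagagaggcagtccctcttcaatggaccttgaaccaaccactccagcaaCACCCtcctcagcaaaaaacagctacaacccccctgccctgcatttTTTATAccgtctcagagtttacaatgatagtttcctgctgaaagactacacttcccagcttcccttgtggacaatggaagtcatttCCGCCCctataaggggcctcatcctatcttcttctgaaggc
Tfpi, second start: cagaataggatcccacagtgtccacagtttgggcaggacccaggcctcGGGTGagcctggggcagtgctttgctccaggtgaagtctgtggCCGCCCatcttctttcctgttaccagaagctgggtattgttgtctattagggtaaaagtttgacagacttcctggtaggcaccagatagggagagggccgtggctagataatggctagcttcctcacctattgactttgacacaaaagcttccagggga
F3: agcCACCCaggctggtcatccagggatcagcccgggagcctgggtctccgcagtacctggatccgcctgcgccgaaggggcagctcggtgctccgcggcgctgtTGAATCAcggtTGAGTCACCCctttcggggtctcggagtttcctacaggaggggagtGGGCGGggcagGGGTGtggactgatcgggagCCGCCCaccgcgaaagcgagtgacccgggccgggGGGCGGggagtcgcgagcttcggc
The first Tfpi window held TATAAA, on the opposite strand, 127 bases before the start, CACCC at 173 and a GC box at 41 bases, whereas the second held a GC box at 159 and CACCC at 202 bases and no TATAAA. The F3 window held 3 GC boxes, 3 CACCC matches and 2 TGANTCA matches, these 146 and 135 bases before the start. One of its CACCC matches, at 130 bases, shares letters with the TGANTCA match at 135. Bases were G or C in 48.4% and 52.8% of the Tfpi windows and in 70% of the F3 window, against a median of 52.4% over all 32851 windows of this length. Among all windows, 12.4% held TATAAA, 32.7% held GGGCGG, 52.0% held CACCC and 6.75% held TGANTCA. The other windows of members ranged from no match of the 4 motifs in a Tfpi2 window to 5 GC boxes and 3 CACCC matches before Pros1, and the Serpine2 window held 6 GC boxes and no other match.

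Total counts per library were between 22356637 and 25245785, and they fell in 2 clusters. The 22°C replicates 1 to 5 had between 22356637 and 22857079 counts, and 22°C replicates 6 and 7 with all 6 mice at 29°C had between 24821549 and 25245785. Adipocyte markers such as Adipoq and Plin1 were high in every library, with a summed level of 22152 to 36675 CPM over 8 markers, where CPM are counts per 1000000 counts of a library size scaled by the trimmed mean of M values (TMM). Skeletal muscle markers summed to between 755 and 79798 CPM at 22°C and between 86.2 and 6322 at 29°C. All 10 of those markers had higher means at 22°C, and 0 of 10 passed the test. With their mean log2 CPM as a covariate, log2 fold changes for 22°C relative to 29°C were -0.71 for Tfpi and -0.91 for Thbd. What part muscle itself had in the results below was not tested.

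Tfpi, the brake on tissue factor, and Thbd, the thrombin receptor that starts the protein C pathway, were lower at 22°C than at 29°C in every mouse, whereas the other 7 members overlapped between temperatures. The level of Tfpi (ENSMUSG00000027082.16) was 21.8 CPM in the lowest mouse, 25.9 at the median and 31.0 in the highest at 22°C. At 29°C it was 40.8, 43.3 and 45.8 CPM, so the highest mouse at 22°C lay below the lowest at 29°C. In the cooler group the mean was 25.9 ± 3.12 CPM (SD, n = 7), against 43.3 ± 1.97 CPM (SD, n = 6), so that Tfpi was 1.67-fold higher in the warmer group, and the log2 fold change for 22°C relative to 29°C was -0.74 ± 0.076 (SE). The mice at 29°C were alike, with a coefficient of variation of 4.54%, the smallest of any member at either temperature, against 12.1% at 22°C. The gene counts do not separate the transcripts that begin at the 2 start sites shown above.

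Thbd (ENSMUSG00000074743.5) had a level of 144 CPM in the lowest mouse, 162 at the median and 239 in the highest at 22°C. At 29°C it reached 295, 312 and 393 CPM, and all 7 mice at 22°C were below all 6 at 29°C. In the cooler group the mean of Thbd was 174 ± 32.4 CPM (SD, n = 7), against 327 ± 39.6 CPM (SD, n = 6) in the warmer group. The log2 fold change was -0.91 ± 0.12 (SE), the largest in size for the 9 members, and the level was 1.88-fold higher at 29°C. The 2 mice at 22°C whose totals matched those at 29°C had 156 and 162 CPM of Thbd and 22.5 and 25.9 CPM of Tfpi, below every mouse at 29°C. Within the libraries with higher totals Tfpi kept an adjusted P under the threshold and Thbd did not, with P-adj = 0.0815 and 0.126 by edgeR's quasi-likelihood test, a comparison that rests on those 2 mice at 22°C. The log2 fold changes there were -0.85 for Tfpi and -1.05 for Thbd. With the cluster of totals as a covariate over all mice, P-adj was 0.048 for Tfpi and 0.118 for Thbd (edgeR), and the log2 fold changes were -0.84 and -1.04. Because all 6 mice at 29°C but only 2 of the 7 at 22°C had higher totals, the parts of temperature and library total cannot be told apart.

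**Figure D1:**
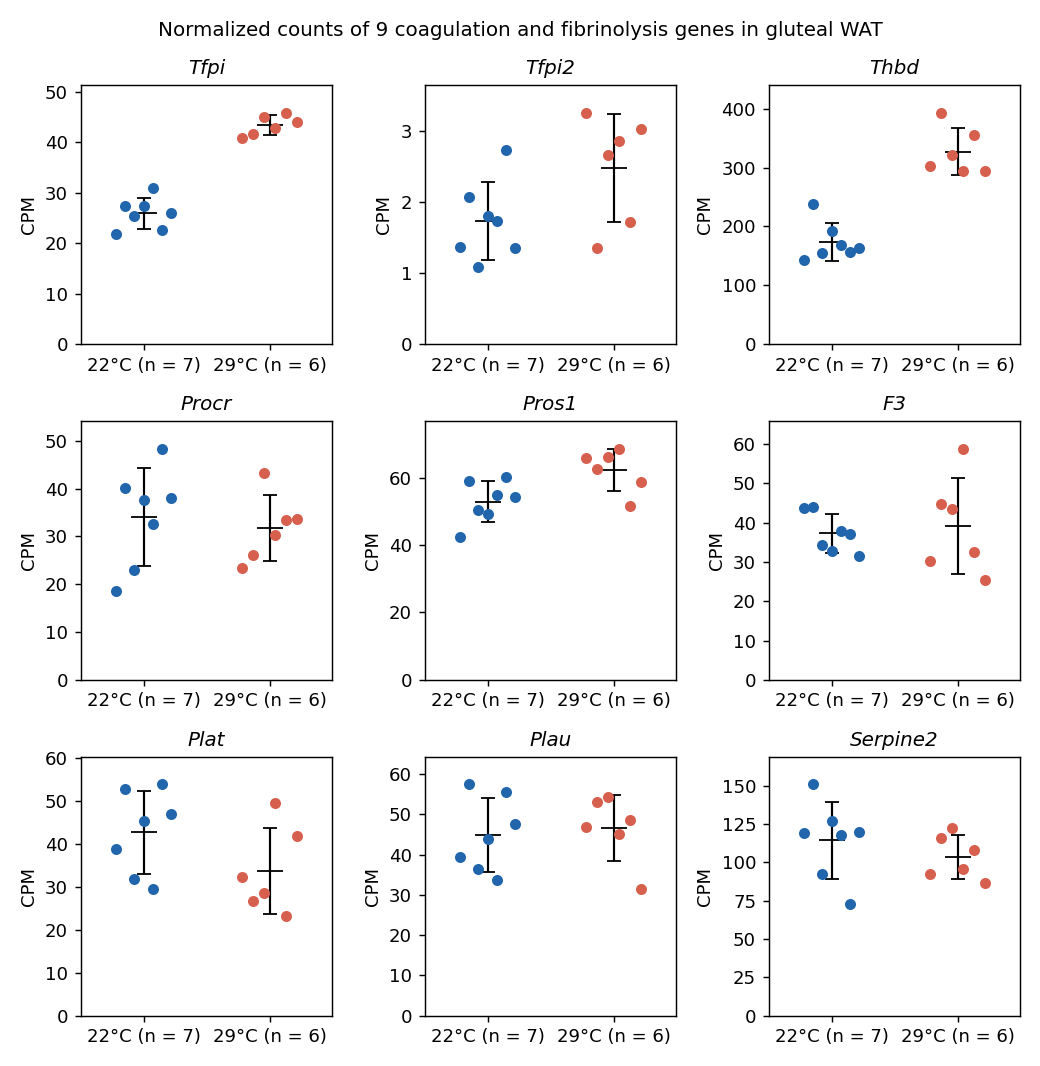
Level of each of the 9 genes in CPM (vertical axis, from 0) in each mouse at 22°C (blue, n = 7) and 29°C (red, n = 6), with the mean and SD in black. Tfpi lies between 21.8 and 31.0 CPM at 22°C and between 40.8 and 45.8 CPM at 29°C, Thbd is likewise separated, and the other 7 genes overlap.

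Of the 9 members, 2 had P-adj below 0.1 (edgeR, adjusted over all genes), both lower at 22°C. Over all genes tested, 345 genes (1.94%) passed in either direction and 215 (1.21%) passed with a lower level at 22°C. The groups did not overlap for 2 of the 9 members and for 221 (1.24%) of all genes. Because these values chose the members, nothing is read from the counts. Between temperatures, 6 members had log2 fold changes below 0 and 3 above it. Their median was -0.07, beside 0.0074 over all genes tested. DESeq2 gave P-adj below 0.1 for the same number of members, 2, and for 1676 of 16388 genes (10.2%).

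**Figure D2:**
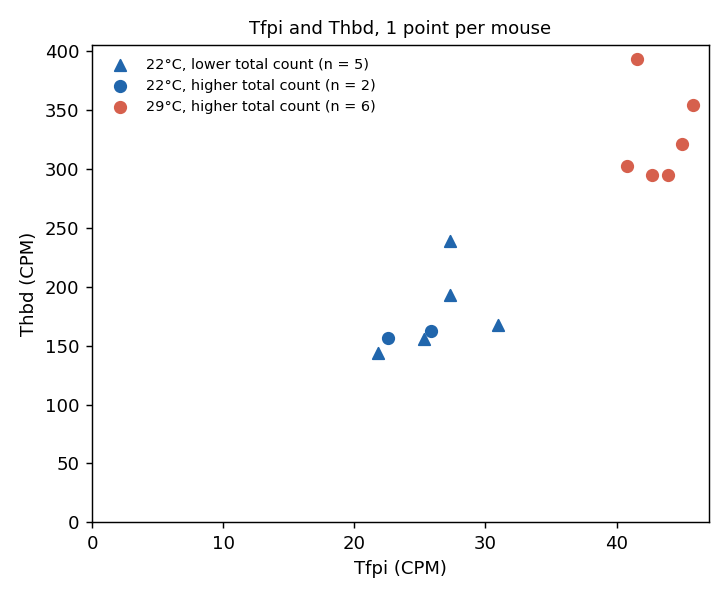
Level of Thbd against that of Tfpi in CPM, 1 point per mouse, in blue for 22°C and red for 29°C, with triangles for the 5 libraries with lower total counts and circles for the 8 with higher totals. The 7 mice at 22°C lie below and to the left of the 6 at 29°C, and the 2 blue circles lie among the blue triangles.

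Tfpi2, a relative of Tfpi that acts on plasmin and other proteases of the matrix, had few reads, with 24 to 85 counts per mouse. Its level was 1.09 CPM in the lowest mouse, 1.74 at the median and 2.74 in the highest at 22°C, and 1.35, 2.76 and 3.26 CPM at 29°C. The groups overlapped, although 3 of the 6 mice at 29°C were above every mouse at 22°C. The log2 fold change was -0.51 ± 0.25 (SE). An expected count of 3, at which about 1 in 20 libraries would show a count of 0, was worth between 0.113 and 0.158 CPM. This is a limit for counting error only, and every mouse lay above it for Tfpi2.

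The partners of thrombomodulin did not separate the temperatures as Thbd did. Pros1 (protein S) lay at 42.3 CPM in the lowest mouse, 54.1 at the median and 60.2 in the highest at 22°C, and at 51.6, 64.2 and 68.6 CPM at 29°C. Of the mice at 22°C, 3 of 7 were below the lowest at 29°C, and 4 of the 6 at 29°C were above the highest at 22°C, with a log2 fold change of -0.23 ± 0.087 (SE). Procr, the receptor for protein C, spread widely at 22°C, with 18.6 CPM in the lowest mouse, 37.6 at the median and 48.4 in the highest. The mice at 29°C, at 23.5, 31.9 and 43.2 CPM, lay within that range, and the log2 fold change was 0.10 ± 0.21 (SE). Protein C itself (Proc), a plasma protein made by the liver, had 8 counts in total over the 13 libraries.

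F3, the receptor that starts coagulation, was 31.5 CPM in the lowest mouse, 37.1 at the median and 44.0 in the highest at 22°C. At 29°C it was 25.4, 38.0 and 58.9 CPM, so that 2 mice lay below and 2 above the whole range at 22°C. Mean levels were 37.4 ± 4.99 CPM (SD, n = 7) in the cooler and 39.2 ± 12.3 CPM (SD, n = 6) in the warmer group, with a log2 fold change of -0.07 ± 0.17 (SE). The wider spread at 29°C, a coefficient of variation of 31.2% against 13.4%, rested in part on replicate 4 at 58.9 CPM. Without that mouse the log2 fold change was 0.08.

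Plat and Plau, the activators of plasminogen, also overlapped. The level of Plat was 29.5 CPM in the lowest mouse, 45.4 at the median and 53.9 in the highest at 22°C, against 23.1, 30.5 and 49.6 CPM at 29°C. Of the mice at 29°C, 3 of 6 were below every mouse at 22°C, and the log2 fold change was 0.34 ± 0.19 (SE), the highest among the members. Plau lay at 33.6, 44.0 and 57.4 CPM at 22°C and at 31.5, 47.8 and 54.3 CPM at 29°C (lowest, median and highest). Its log2 fold change was -0.05 ± 0.15 (SE), and it took the opposite sign when the cluster of library totals entered the fit, at 0.15.

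Serpine2, the inhibitor of thrombin and of both activators, was 72.7 CPM in the lowest mouse, 119 at the median and 151 in the highest at 22°C. At 29°C it was 86.7, 102 and 122 CPM, within the range at 22°C, and the log2 fold change was 0.14 ± 0.15 (SE). This sign was also not kept within the libraries with higher totals, where the value was -0.11.

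**Figure D3:**
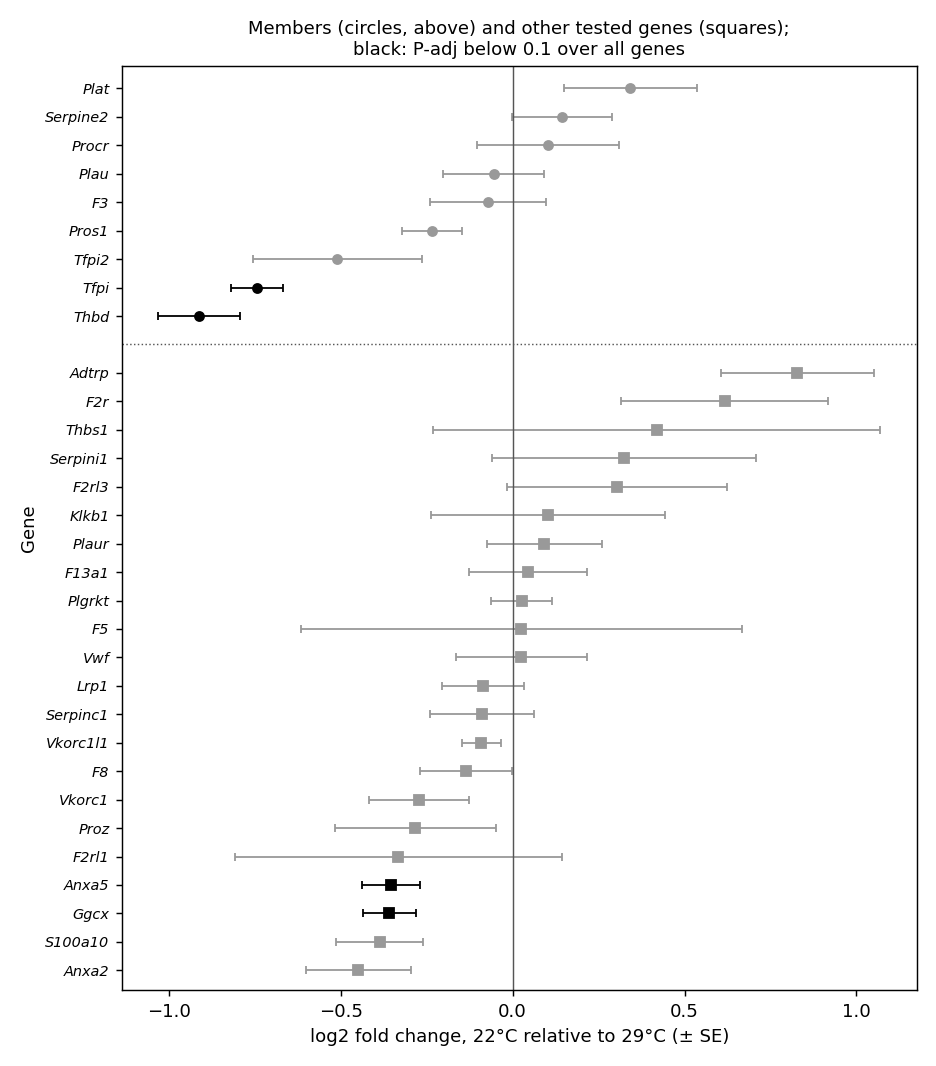
Log2 fold change for 22°C relative to 29°C with its SE (horizontal axis) for the 9 members (circles, above the dotted line) and other coagulation and fibrinolysis genes tested (squares), in black where P-adj was below 0.1 over all genes. Thbd and Tfpi lie farthest to the left, and Anxa5 and Ggcx are the black squares.

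Levels of different genes were compared only after division by exon length, as CPM per kb of the exons that GENCODE M21 gives. Thbd was the highest member in all 13 mice, at 46.7 ± 8.69 CPM per kb (SD, n = 7) in the cooler and 87.8 ± 10.6 CPM per kb (SD, n = 6) in the warmer group. Plau followed at 18.9 and 19.7 CPM per kb, and it was above Procr, at 16.8 and 15.6, in 10 of 13 mice. Procr, F3, Pros1 and Serpine2 formed a middle group between 12.5 and 16.8 CPM per kb in which neighbours did not keep their order, with Procr above F3 in 8 of 13 mice, F3 above Pros1 in 9 and Pros1 above Serpine2 in 7. Serpine2 was above Tfpi in all 13 mice, and Tfpi2 was the lowest in all 13, at 0.994 and 1.42 CPM per kb. Tfpi and Plat exchanged places. At 22°C Tfpi, at 4.74 CPM per kb, was above Plat, at 6.85, in 1 of 7 mice, and at 29°C, at 7.93 against 5.40, in 5 of 6.

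**Figure D4:**
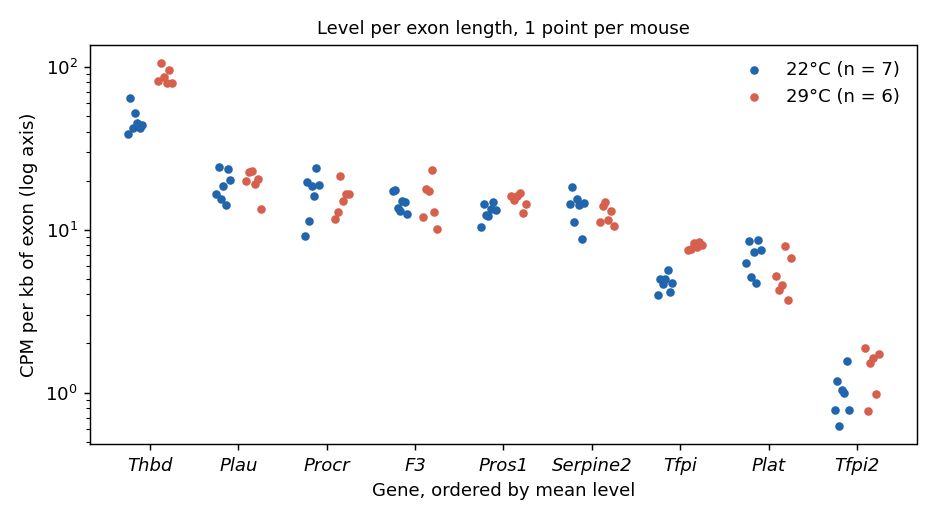
Level of each member in CPM per kb of exon on a log axis, 1 point per mouse, at 22°C (blue, n = 7) and 29°C (red, n = 6), with genes ordered by mean level. Thbd is highest and Tfpi2 lowest in all 13 mice, and Procr, F3, Pros1 and Serpine2 lie close together.

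RNA of initiator and inhibitor was compared as the ratio of F3 to Tfpi per kb in each mouse. This ratio is of RNA in whole tissue, not of protein or activity. At 22°C it ran from 2.61 to 4.35, with a mean of 3.17 ± 0.66 (SD, n = 7). At 29°C it ran from 1.25 to 2.98, with a mean of 1.97 ± 0.63 (SD, n = 6), and 3 of the 7 mice at 22°C were above every mouse at 29°C. The ratio of Thbd to Procr, which act on the same substrate, was 2.98 ± 0.83 at 22°C and 5.87 ± 1.53 at 29°C, with 6 of 7 mice at 22°C below every mouse at 29°C. These ratios contain Tfpi or Thbd and so carry the values that chose the members. The ratio of Thbd to Tfpi, which were both lower at 22°C, was 9.89 ± 1.52 and 11.1 ± 1.47, and the groups overlapped. The ratio of Plat to Plau was nearly constant at 22°C, at 0.360 ± 0.023 and between 0.330 and 0.391, but lay between 0.180 and 0.504 at 29°C, at 0.292 ± 0.136, a difference in spread that was not tested.

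With the mean of each temperature taken out and all mice pooled, the members varied together only in part. Deviations of log2 CPM from the temperature mean were correlated over the 13 mice for 36 pairs of members and for each member with the mean log2 CPM of 9 lists of cell type markers, 117 relations in all. The median correlation between members was 0.22, and 5 pairs exceeded 0.5, of which Thbd with Serpine2 was highest at r = 0.66 (rho = 0.71). For that pair permutation within temperatures gave p = 0.0356 and 0.0126, or 0.463 and 0.211 when adjusted over the 117 relations. Its r was 0.64 at 22°C and 0.71 at 29°C. Pooling hid opposite signs in other pairs, as a description over few mice with no test. Plat with Plau had r = 0.97 at 22°C and -0.61 at 29°C, against 0.19 pooled. For Tfpi2 with Thbd r was 0.38 and -0.97, against -0.15 pooled. Tfpi with Thbd had r = 0.43 and rho = 0.60, with permutation p = 0.224 and 0.0525 before adjustment and 0.698 and 0.409 after. The 2 genes whose levels differed most between temperatures were therefore not shown to vary together from mouse to mouse at this number of mice.

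Plat and Tfpi2 followed the fibroblast and progenitor markers, Pros1 the macrophage markers and Thbd the platelet markers by Pearson's r. For Plat r was 0.86 and rho 0.84, with permutation p = 0.00016 and 0.00065 and adjusted values of 0.0187 and 0.076, and r stayed at 0.86 without the 2 mice farthest from the median marker level. For Pros1 with macrophage markers r was 0.85 and rho 0.76, with permutation p = 0.00094 and 0.00601 (adjusted 0.0367 and 0.141), and r was 0.59 without the 2 farthest mice. For Tfpi2 with the fibroblast markers r was 0.79 and rho 0.76, with permutation p = 0.0014 and 0.00249 (adjusted 0.041 and 0.0971), and r was 0.66 without the 2 farthest mice. For Thbd with platelet markers r was 0.60 and rho 0.67, with permutation p = 0.00036 and 0.00249 (adjusted 0.0211 and 0.0971), but r fell to 0.45 without the 2 farthest mice, so the relation rests in part on them. No adjusted value of rho for these 4 relations was below 0.05, and all correlations share the libraries and their scaling. The relations were not particular to 1 list per gene. With macrophage markers, Tfpi2 had r = 0.67 and rho = 0.76, and Plat had r = 0.68 and rho = 0.72. Pros1 with fibroblast and progenitor markers had r = 0.63 and rho = 0.63. Adjusted permutation p for r was 0.345, 0.341 and 0.449 in that order. For Tfpi, r with the 9 marker lists lay between -0.23 for skeletal muscle and 0.20 for adipocytes. Within a single temperature its values ranged more widely, from -0.62 with macrophage markers at 29°C to 0.88 with platelet markers at 22°C, as a description over few mice with no test.

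Fibroblast and progenitor markers summed to between 3131 and 5261 CPM at 22°C and between 3731 and 5576 at 29°C, and macrophage markers to between 439 and 1000.33 and between 528 and 1002 CPM. Those of mural cells summed to between 516 and 855 CPM and between 623 and 735, and those of keratinocytes to between 12.5 and 95.5 CPM and between 16.3 and 354. Of the single marker genes, 0 in each of the 9 lists had P-adj below 0.1 between temperatures (edgeR). Endothelial markers, the cells that carry thrombomodulin, had lower means in the cooler group for 9 of 10 genes. Their log2 fold changes ran from -0.25 to 0.03 around a median of -0.13, and their summed level was 553 to 750 CPM at 22°C and 572 to 822 at 29°C. With the mean log2 CPM of these markers as a covariate, log2 fold changes were -0.73 for Tfpi and -0.87 for Thbd. Without it they were -0.74 and -0.91. That fit does not show what part endothelium had in the levels of Tfpi and Thbd, which was not tested. Over the 13 mice, Thbd with the endothelial markers had r = 0.25 and rho = 0.38 for deviations from the temperature mean. Permutation p was 0.422 and 0.197 (adjusted 0.879 and 0.590). Taken singly, r was -0.09 at 22°C and 0.78 at 29°C, as a description over few mice. Platelet markers summed to between 30.0 and 54.6 CPM at 22°C and between 34.9 and 79.8 CPM at 29°C, and 4 of the 5 tested markers had lower means in the cooler group, with -0.13 as the median of their log2 fold changes. The part of platelets in the level of Thbd was not tested.

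**Figure D5:**
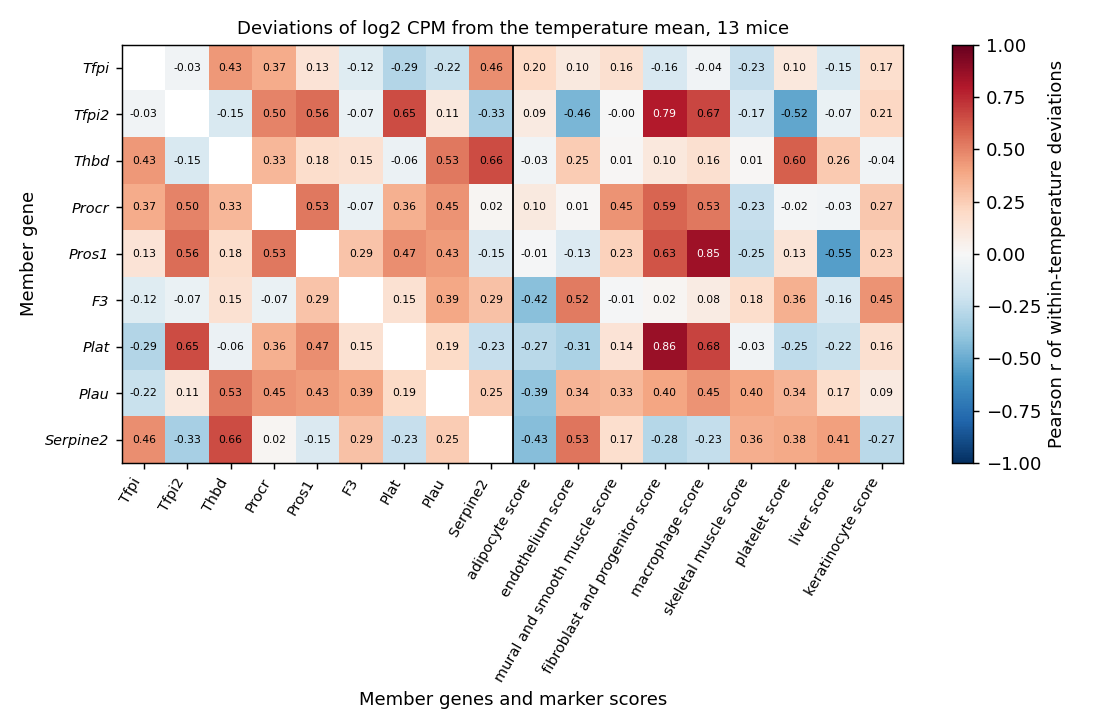
Pearson correlation over 13 mice of the deviations of log2 CPM from the temperature mean, for each member (rows) with each other member and with the mean log2 CPM of 9 marker lists (columns, right of the line), from -1 (blue) to 1 (red). Plat with the fibroblast markers (0.86) and Pros1 with the macrophage markers (0.85) are the deepest red cells.

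Among 12233 genes with a mean of at least 5 CPM, the 2 with the most similar deviations were found for each member, over the same 13 mice. For Tfpi they were Fgfr2 and Klf14, both at r = 0.87. For Thbd they were Rassf1 at 0.93 and Lmo1 at 0.89, and for Procr Fndc10 at 0.92 and Pcsk7 at 0.88. For Plat they were the microfibril genes Fbn1 at 0.94 and Mfap5 at 0.93, and for Pros1 Lxn at 0.91 and Adam22 at 0.90. For Tfpi2 they were Rps3 at 0.91 and Pole3 at 0.89, for F3 Gm45867 at 0.90 and Cog3 at 0.86, for Plau Fmnl1 at 0.84 and Stoml1 at 0.83, and for Serpine2 Alkal2 at 0.88 and Slc8a1 at 0.85. These are the highest values of a search over many genes and are a description.

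Of 43 other genes of the pathway, 40 were in the table and 23 passed the filter. F13b, Fga and Fgb were not analysed here. The 17 genes that did not pass had at most 2.48 CPM in any mouse, the value of Serpinb2, and include plasma proteins made by the liver, such as prothrombin (F2, 3 counts in all libraries together), plasminogen (Plg, 4 counts) and factor IX (F9, 1 count). Liver markers summed to between 29.8 and 81.8 CPM over all mice, nearly all of it Alb, with Ttr at 0 in 10 and Tat at 0 in 11 libraries. Of the 23 tested genes, 12 had log2 fold changes below 0 and 11 above it, around a median of -0.07, and 2 genes (8.70%) had P-adj below 0.1, both lower at 22°C, beside 1.94% of all genes tested in either direction and 1.21% with a lower level at 22°C. The list was drawn up with earlier results of these data known, and nothing particular to it is read from the counts.

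The 2 called genes were Anxa5 and Ggcx. Annexin A5 (Anxa5), which shields the phospholipid on which clotting complexes assemble, ran from 267 to 367 CPM at 22°C (median 324) and from 383 to 439 CPM at 29°C (median 409), with no overlap. Its log2 fold change was -0.35 ± 0.085 (SE, edgeR P-adj = 0.0858). Ggcx, the carboxylase that uses vitamin K to modify protein S and the clotting factors, ran from 19.9 to 26.7 CPM at 22°C (median 22.6) and from 26.4 to 31.8 CPM at 29°C (median 28.3). Of the 7 mice at 22°C, 6 were below the lowest at 29°C, and the log2 fold change was -0.36 ± 0.077 (SE, edgeR P-adj = 0.0709). With each mouse left out in turn, Anxa5 passed in 3 of 13 fits and Ggcx in 6 of 13, with P-adj up to 0.195 and 0.170, while the log2 fold changes stayed between -0.39 and -0.31 for Anxa5 and between -0.40 and -0.33 for Ggcx. Neither passed with the skeletal muscle marker level as a covariate, at -0.28 and -0.31. The number of genes called in all fell in most of these fits too.

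The remaining genes of the list gave no call. Of the coagulation factors, 4 of 5 tested genes had a higher and 1 a lower mean log2 level at 22°C. F13a1, the subunit of the fibrin-crosslinking enzyme that macrophages make, had 178 ± 36.3 CPM at 22°C and 173 ± 42.2 at 29°C (edgeR P-adj = 0.918). The endothelial Vwf, which tethers platelets, had 94.6 ± 27.8 and 93.0 ± 19.1 CPM (edgeR P-adj = 0.962). The thrombin receptor F2r had 10.3 ± 5.21 and 6.68 ± 1.78 CPM, a log2 fold change of 0.62 ± 0.30 (SE, edgeR P-adj = 0.297), and the related F2rl1 -0.33 ± 0.48 (SE, edgeR P-adj = 0.752). Of the anticoagulants, 3 of 4 were lower at 22°C, Anxa5 among them, and antithrombin (Serpinc1) had 8.10 ± 1.25 and 8.61 ± 1.92 CPM (edgeR P-adj = 0.794), with exons that overlap those of Zbtb37 on the other strand.

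In fibrinolysis, 4 of 8 tested genes were higher and 4 lower at 22°C. Anxa2, which with S100a10 holds plasminogen and Plat at the cell surface, had 396 ± 68.1 CPM at 22°C and 540 ± 128 at 29°C, with a log2 fold change of -0.45 ± 0.15 (SE, edgeR P-adj = 0.170). The clearance receptor Lrp1, which takes up complexes of Plat, Plau and Tfpi, had 1010 ± 127 and 1073 ± 166 CPM (edgeR P-adj = 0.741). In the vitamin K cycle all 3 genes were lower at 22°C, with Vkorc1 at -0.27 ± 0.14 (SE, edgeR P-adj = 0.338) and Vkorc1l1 at -0.09 ± 0.056 (SE, edgeR P-adj = 0.409). By GENCODE M21, exons of Vkorc1 overlap Gm21974 on its own strand, and those of Anxa2 and F13a1 overlap antisense genes, whereas none of the 9 members overlaps another gene.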

How the data were processed

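RNA of gluteal WAT from 13 mice (7 at 22°C, 6 at 29°C) was grouped by the temperature and replicate number of the labels. The authors aligned reads with STAR 2.7.5a and counted them with featureCounts. They deposited raw counts per gene, together with regularized log2 values from DESeq2, which the authors deposited for the same libraries. The labels name GRCm39. The annotation release and strand setting are not given in the sources used here. Names were matched by gene identifier without its version, for 34006 of 34419 genes. The members and the lists were chosen with earlier results of these data known.

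Counts were compared with edgeR 4.0.16 in R 4.3.3 (TMM, filterByExpr, quasi-likelihood F test, Benjamini-Hochberg, P-adj below 0.1). Each SE was taken as |log2 fold change| over the root of its F statistic. Fold changes are for 22°C relative to 29°C, and log2 CPM used a prior count of 2. Correlations used 100000 permutations within temperatures, two-sided. Alternatives were DESeq2 1.42.0, its size factors, limma 3.58.1 on the deposited log2 values, other filters, a robust fit, covariates, a replicate block and leaving out each mouse. Genes were named by rule: all members, the called genes of the wider list, and the 2 highest by mean CPM in each of its roles. Single values of some listed genes are not reported here. No pair of libraries agreed within sampling noise (lowest chi-square per gene 17.1 over 78 pairs).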

Additional observations from a re-analysis of the deposited data

How the results depend on the processing

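The count of 345 genes called over all genes became 42 without a filter on low counts, 47 with the muscle score as a covariate, 8 within the libraries with higher totals, 4 when the library total cluster was a covariate, 40 at P-adj below 0.05 and 1676 with DESeq2. Leaving out 1 mouse gave between 32 genes, when 29°C replicate 3 was dropped, and 652, when 22°C replicate 6 was dropped. The 2 called members, Tfpi and Thbd, stayed at 2 except with the library total cluster or within the libraries with higher totals, where 1, Tfpi, was left. Tfpi passed under 24 of 24 alternatives, with log2 fold changes from -0.85 to -0.58, and Thbd under 22 of 24, from -1.05 to -0.74. These fits reuse the libraries that chose the members, so passing was likely beforehand and is a description only. The 2 called genes of the wider list became 0 without a filter, with the library total cluster, within the libraries with higher totals and at P-adj below 0.05, 1 with the muscle score (Adtrp), 5 with DESeq2 (Anxa5, Ggcx, Anxa2, S100a10 and Adtrp), and 0 to 3 when 1 mouse was left out. Without a filter, more genes were tested; the other causes were not tested.

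Of the 9 members, Anxa5 and Ggcx, 4 members changed sign under some alternative, each time by less than its SE from 0. Procr went to -0.0022 without 22°C replicate 6, in a range of -0.0022 to 0.21 when 1 mouse was left out. F3 went to 0.0621 with the endothelium score, and ranged from -0.17 to 0.0805 when 1 mouse was left out, the upper value without 29°C replicate 4. Plau went to 0.0193 with the endothelium score, 0.1465 with the library total cluster and 0.1375 within the libraries with higher totals, and ranged from -0.1445 to 0.0039 when 1 mouse was left out, the upper value without 22°C replicate 5. Serpine2 went to -0.1083 within the libraries with higher totals and to -0.1032 when the library total cluster was a covariate.

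With the replicate block, 214 genes were called, 2 members and, of the wider list, Ggcx and Adtrp in place of Anxa5, and the log2 fold change of F3 was 0.015. Same-numbered mice at the 2 temperatures had correlated deviations between 0.0508 and 0.513, over 0.1 in 5 of 6 pairs, and 4 of 6 matched best with their own number, a hint in the data of something shared. The labels give no shared litter, batch or day for a number, and the pair at 0.0508 was not over 0.1, which was required of every pair, so the replicate block was kept as an alternative.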

Other observations

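Adtrp, which encodes a protein named for its regulation of Tfpi at the cell surface, was noticed after its values were seen. Its level ran from 5.34 to 14.7 CPM at 22°C (median 8.18) and from 3.91 to 6.57 CPM at 29°C (median 5.20). Of the 7 mice at 22°C, 6 were above the highest at 29°C. The means were 9.23 ± 3.27 CPM (SD, n = 7) and 5.21 ± 1.01 CPM (SD, n = 6), a log2 fold change of 0.83 ± 0.22 (SE), the opposite direction to Tfpi, and it did not pass the threshold (edgeR P-adj = 0.110). It did pass with the skeletal muscle marker level as a covariate and with DESeq2.

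Thbs1, which binds plasminogen, spread more from mouse to mouse than any of the 9 genes at both temperatures. It had a median of 20.1 and a highest value of 139 CPM at 22°C, and a median of 20.9 and a highest value of 89.1 CPM at 29°C, with a log2 fold change of 0.42 ± 0.65 (SE, edgeR P-adj = 0.773). Its coefficient of variation was 113% at 22°C and 99.1% at 29°C, against at most 31.6% for the members.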
